A study of Homo sapiens with 12 samples.

Results

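The nucleic acid sensors are the receptors and adaptors with which a cell detects RNA or DNA in its endosomes and cytosol, and 10 of their genes were followed here, chosen by symbol among the 78892 genes of the count table: TLR3, TLR7, TLR9, RIGI, IFIH1, MAVS, CGAS, STING1, AIM2 and IFI16. All 10 were in the table, and 9 of them passed the filter on low counts and were among the 17869 genes tested. The cells were OCI-Ly7, a line grown from a human diffuse large B-cell lymphoma of the germinal-centre subtype, so every value describes 1 line. Messenger RNA of 12 libraries was sequenced, 3 in each of 4 groups. The vehicle group received neither drug. The HDAC3i group received an HDAC3 inhibitor at 15 µM on days 2 and 4, the AZA group received 5-azacitidine at 100 nM on every day from day 0 to day 4, and the HDAC3i_AZA group received both. All cells were harvested on day 5. HDAC3 removes acetyl groups from histones in co-repressor complexes. The cytidine analogue 5-azacitidine enters nucleic acids and traps the enzymes that methylate DNA. Which HDAC3 inhibitor was given is not stated in these sources. No label ties the 3 libraries of a group to separate cultures, so p-values reflect how far these libraries varied, and that variation may be technical.

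Endosomal Toll-like receptors read RNA or DNA that has been taken up or carried into the endosome, and signal through the adaptors TRIF or MyD88. In the cytosol, RIG-I and MDA5 bind viral or other unusual RNA and pass the signal to MAVS on mitochondria, while cGAS binds DNA and makes a cyclic dinucleotide that activates STING. Both routes end in the kinase TBK1, the factor IRF3 and the transcription of type I interferon genes. AIM2 and IFI16 belong to the HIN-200 family of DNA-binding proteins, and AIM2 assembles an inflammasome that activates caspase-1. In B cells TLR7 and TLR9 respond to nucleic acids brought in with antigen, and loss of DNA methylation is known to raise endogenous RNA that some of these receptors can bind.

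Library totals lay between 35947872 and 36337086 counts. Mitochondrially encoded genes took 9.59% to 10.5% of the counts in vehicle and 12.14% to 13.02% with the inhibitor. In AZA replicate 1 the share was 13.8%, against 10.01% and 10.2% in the other AZA libraries, and in HDAC3i_AZA replicate 3 it was 15.3%, against 12.5% and 12.9%. AZA replicate 1 also stood apart over all genes, where its counts differed from those of its replicates by a chi-square of 27.5 and 24.8 for each degree of freedom, against 4.09 between the latter. The results were therefore also computed without that pair of libraries. Levels are CPM, counts scaled to 1e+06 of the TMM-adjusted library size, and RPKM is CPM divided by the exonic length in kb. A gene with 0 counts in a library could still have had up to 3 counts, 0.0826 to 0.0835 CPM. That limit covers counting error only.

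The labelled cell type was checked against its markers. All 10 B-cell markers were counted in every library, and their summed level was 5704 to 6060 CPM in vehicle, 8416 to 8562 in the inhibitor group, 6023 to 6439 with 5-azacitidine and 8821 to 9396 with both drugs. CD74 was the largest part, at 2786 CPM in vehicle and 4455 with the inhibitor, followed by MS4A1, at 872 and 1446. With the inhibitor 7 of the 10 were called higher, beside 26.4% of all genes. The 2 called lower, beside 24.9%, were BCL6 (log2 -0.18, adjusted p = 0.00501) and MME (log2 -0.27, adjusted p = 0.00109). Of 8 markers of plasmacytoid dendritic cells, which also express TLR7 and TLR9, 2 were counted in every library and LAMP5 was at 0 throughout, with sums of 44.0 to 45.7 CPM in vehicle, 46.2 to 48.9 with the inhibitor, 46.6 to 49.3 with 5-azacitidine and 42.8 to 49.7 with both drugs, most of it TCF4, a factor that B cells also express. Of the 3 tested, 2 (LILRA4 and IL3RA) were called higher with the inhibitor and with both drugs, beside 26.4% and 29.6% of all genes. LILRA4, with 0 counts in vehicle, reached 0.303 and 0.637 CPM. It passed the low-count filter only through libraries that held the inhibitor, which set its direction, so these values are a description. Without LILRA4, 1 of 2 rose. IL3RA went from 0.793 to 1.37 and 1.46 CPM (adjusted p = 0.0101 and 0.00364). Of 12 myeloid markers, 2 were counted in every library and S100A8 and ELANE were at 0, with sums of 0.875 to 2.24 CPM in vehicle, 3.21 to 3.72 with the inhibitor, 1.44 to 1.91 with 5-azacitidine and 4.69 to 5.14 with both drugs. Of 10 T and NK cell markers, 4 were counted in every library and CD8A was at 0, with sums of 86.4 to 97.9 CPM in vehicle, 244 to 252 with the inhibitor, 105.4 to 120.2 with 5-azacitidine and 246 to 262 with both drugs, most of it TRAC. The B-cell, myeloid and T-cell sums, LILRA4 and IL3RA and the mitochondrial share thus moved with the inhibitor in the same libraries as the sensors, and their part in the results was not tested. In bulk RNA, fewer cells of a type and less RNA per cell cannot be told apart.

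Which bases of a gene can be counted differed among the sensors. Reads that overlapped more than 1 annotated gene were left out of the counts, and the genes TLR9 and RIGI share most of their coding sequence with a second gene model on the same strand. TLR9 (ENSG00000239732; GRCh38 chromosome 3, 52221080 to 52225645, minus strand) shares 3341 of its 3352 exonic bases with ENSG00000173366, including all 3096 coding bases. RIGI, which encodes RIG-I (ENSG00000107201; chromosome 9, 32455302 to 32526348, minus strand), shares 42.6% of its 10485 exonic bases with ENSG00000288684, and of the 2775 coding bases of its longest coding transcript 106 lie outside that model. Both overlapping models had 0 counts in all 12 libraries. The levels of TLR9 and RIGI therefore cannot be set beside those of the other sensors, and the low counts of these genes are no measure of how much of their messenger RNA the cells held. A comparison of RIGI between groups rests on reads in the exons that remain, which include 264 of the 4353 exonic bases of that transcript.

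The other 8 members were nearly free of such overlap. TLR3, TLR7, IFIH1 and STING1 share 0 exonic bases with another gene, and over all annotated exons the shared part was 1.90% for MAVS, 4.31% for CGAS, 5.87% for AIM2 and 8.03% for IFI16. The longest coding transcript of each of these 8 genes had 0 shared coding bases. IFI16 had fractional counts in 12 libraries and MAVS in 3, since reads that map to several places were split, and the other members had whole counts in all of them.

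**Figure D1:**
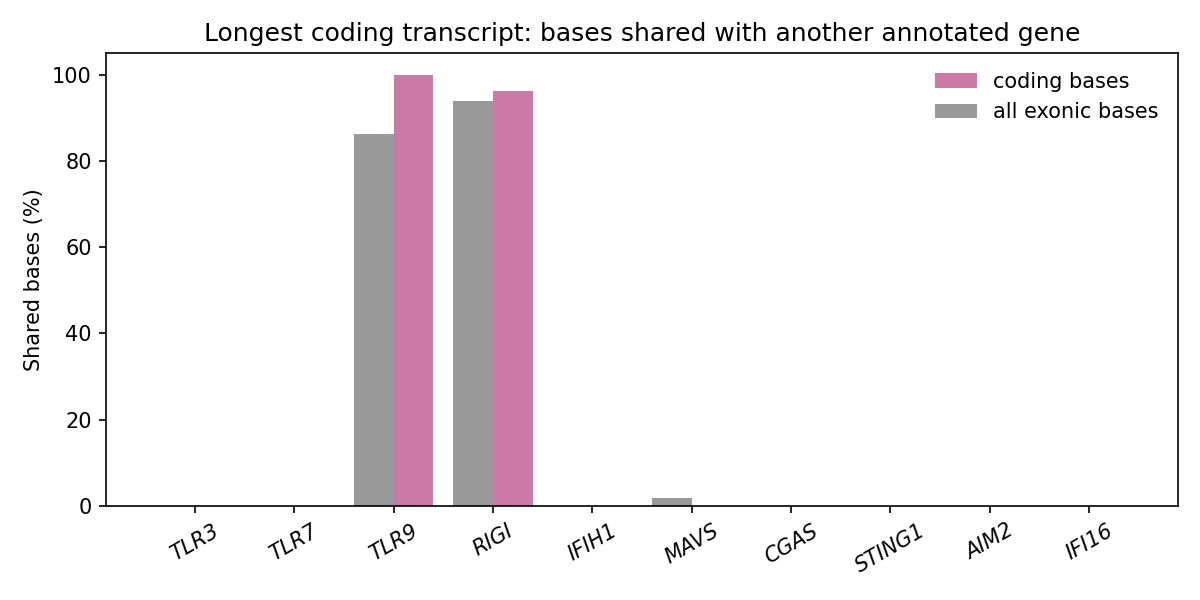
Percent of exonic bases (grey) and of coding bases (pink) of the longest coding transcript of each sensor gene that are shared with another annotated gene, where reads were left out of the counts. TLR9 and RIGI stand at 100% and 96.2% of their coding bases, MAVS shares 1.91% of its exonic bases, and the other genes are at 0.

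Promoter sequences were read for the members in RefSeq (GRCh38.p14), which held 8 windows for 7 of the 10 genes, each from 250 bases before to 50 after a gene start. They were searched on both strands for 3 motifs. The core of an interferon-stimulated response element was taken as GAAA, 2 bases of any kind and GAAA, the STAT-type motif as TTCNNNGAA, and the NF-kB-type motif as GGGA, 4 bases of any kind and CC. Of 35116 promoters of that length, 3.57% held the first, 7.66% the second and 25.6% the third. Shown are the 3 members with a match to the interferon-type motif, each called in at least 1 comparison, and RIGI, a helicase of the same family as MDA5 without a match. They are printed from 200 bases before the start to 10 after it, on the strand of the gene, with matches to the interferon-type motif on either strand in capitals.
TLR3, chr4:186068956-186069165, plus strand: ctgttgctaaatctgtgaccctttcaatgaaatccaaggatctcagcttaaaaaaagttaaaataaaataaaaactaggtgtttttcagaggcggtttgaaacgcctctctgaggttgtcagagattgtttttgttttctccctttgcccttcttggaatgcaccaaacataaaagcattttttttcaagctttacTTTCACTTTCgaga
RIGI, chr9:32526187-32526396, minus strand: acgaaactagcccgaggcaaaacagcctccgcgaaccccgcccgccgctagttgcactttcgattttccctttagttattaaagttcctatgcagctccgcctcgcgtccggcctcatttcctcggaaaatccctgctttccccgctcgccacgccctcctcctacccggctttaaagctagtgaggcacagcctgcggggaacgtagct
IFIH1, chr2:162318675-162318884, minus strand: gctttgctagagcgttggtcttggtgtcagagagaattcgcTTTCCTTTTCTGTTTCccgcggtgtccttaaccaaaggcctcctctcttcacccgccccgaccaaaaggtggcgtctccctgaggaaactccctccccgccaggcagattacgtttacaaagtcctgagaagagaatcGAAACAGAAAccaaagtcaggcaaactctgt
AIM2, chr1:159076757-159076966, minus strand: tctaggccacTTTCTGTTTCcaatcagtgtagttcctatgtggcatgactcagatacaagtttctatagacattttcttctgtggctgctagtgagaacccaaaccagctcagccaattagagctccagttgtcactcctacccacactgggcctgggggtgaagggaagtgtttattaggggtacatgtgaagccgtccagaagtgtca
In TLR3 the match begins 4 bases before the start, and 2 STAT-type matches begin 178 and 50 bases before it. IFIH1 has 3 matches to the interferon-type motif, at 159, 153 and 21 bases before the start, of which the first and the second overlap, and 2 NF-kB-type matches at 89 and 76 bases before it. AIM2 has a single match, 190 bases before a RefSeq start that lies inside the longer gene span of the counting annotation. RIGI has an NF-kB-type match 76 bases before the start and none of the others. The windows of TLR9, MAVS and IFI16 held none of the 3 motifs. These windows also differ in CpG dinucleotides, the sites of DNA methylation: 34 in MAVS, 27 in RIGI, 12 in IFIH1, 5 in TLR3, 2 each in AIM2 and TLR9, and 1 and 3 in the windows of IFI16, against a median of 14 over all promoters. A match is a description of the letters, not of a bound factor.

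Per exonic length and among the 8 members whose level could be read, IFI16 had the highest value in vehicle, at 65.3 ± 0.934 RPKM (SD, n = 3). MAVS followed at 7.68 ± 0.368 RPKM. TLR7 at 3.67 ± 0.396, AIM2 at 3.49 ± 0.163 and IFIH1 at 3.43 ± 0.276 RPKM lay within their spread of each other. TLR3 at 0.0465 ± 0.0292 and CGAS at 0.0220 ± 0.00738 RPKM also lay within their spread of each other, and STING1 was at 0.00384 ± 0.00665 RPKM. IFI16 made up 78.0% of the summed RPKM of the members, as counted, in vehicle, 73.3% with the inhibitor, 79.9% under 5-azacitidine and 71.8% with both drugs. In vehicle, then, the cytosolic adaptor MAVS and the DNA-binding IFI16 were well counted, while the DNA sensor cGAS and its adaptor STING were close to the limit of 3 counts a library.

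**Figure D2:**
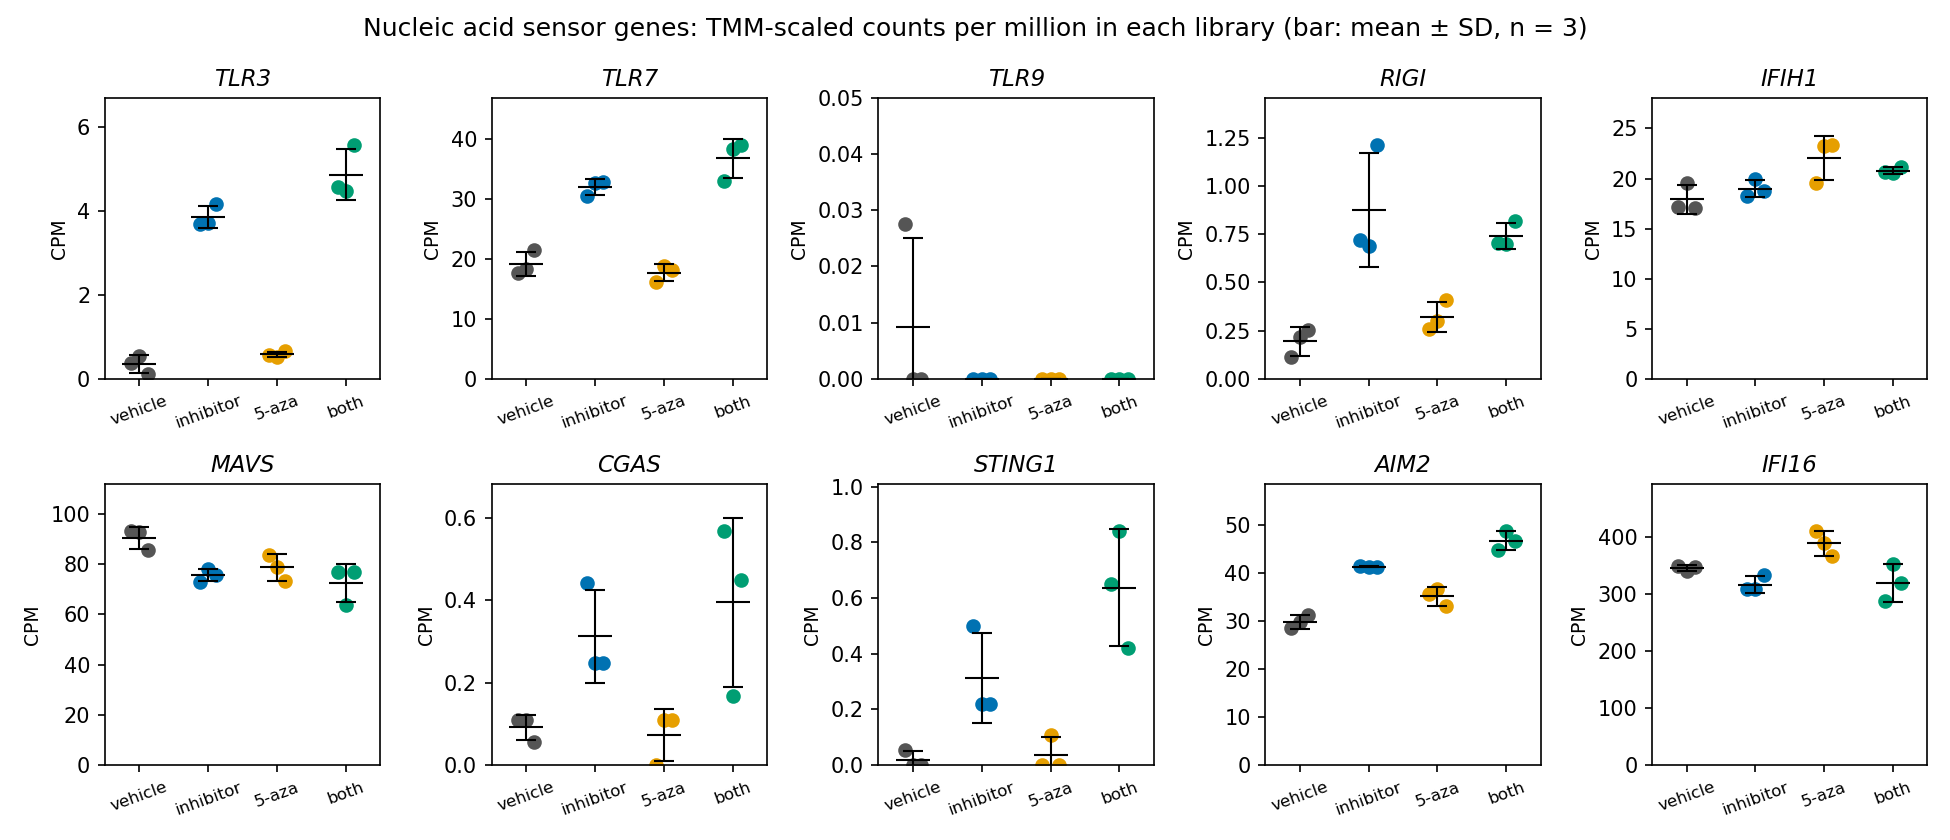
TMM-scaled CPM of each sensor gene (y axis, linear, a separate scale per panel) in the 12 libraries of the vehicle, inhibitor, 5-azacitidine and combination groups; points are libraries, and bars are the mean ± SD of 3. TLR3, TLR7 and AIM2 are higher in every library with the inhibitor than in vehicle, MAVS is lower, and TLR9 has 1 count in 1 vehicle library, which cannot be read as its level because its coding bases are not countable.

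With the inhibitor alone, 6 of the 9 tested members rose and 1 fell, against 26.4% of all genes tested that rose and 24.9% that fell. The median log2 change of the 9 was 0.74, and that of all genes 0.00064. RIGI had 0 vehicle libraries over the low-count filter of 0.277 CPM, CGAS and STING1 passed it only through libraries that held the inhibitor, and the direction of these 3 in such a count was thereby set, so the count is a description. Without CGAS and STING1, 4 of 7 rose, RIGI still among them, and 1 fell, with a median of 0.47. With 5-azacitidine alone, 2 members rose and 0 fell, beside 4.31% and 4.75% of all genes, and the medians were 0.24 and 0.0021. With both drugs, 7 rose and 1 fell, beside 29.6% and 27.5%, with medians of 0.94 and 0.0079. Without CGAS and STING1, 5 of 7 rose with both drugs, RIGI again among them, and 1 fell, with a median of 0.65. The comparisons with vehicle share the vehicle libraries.

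**Figure D3:**
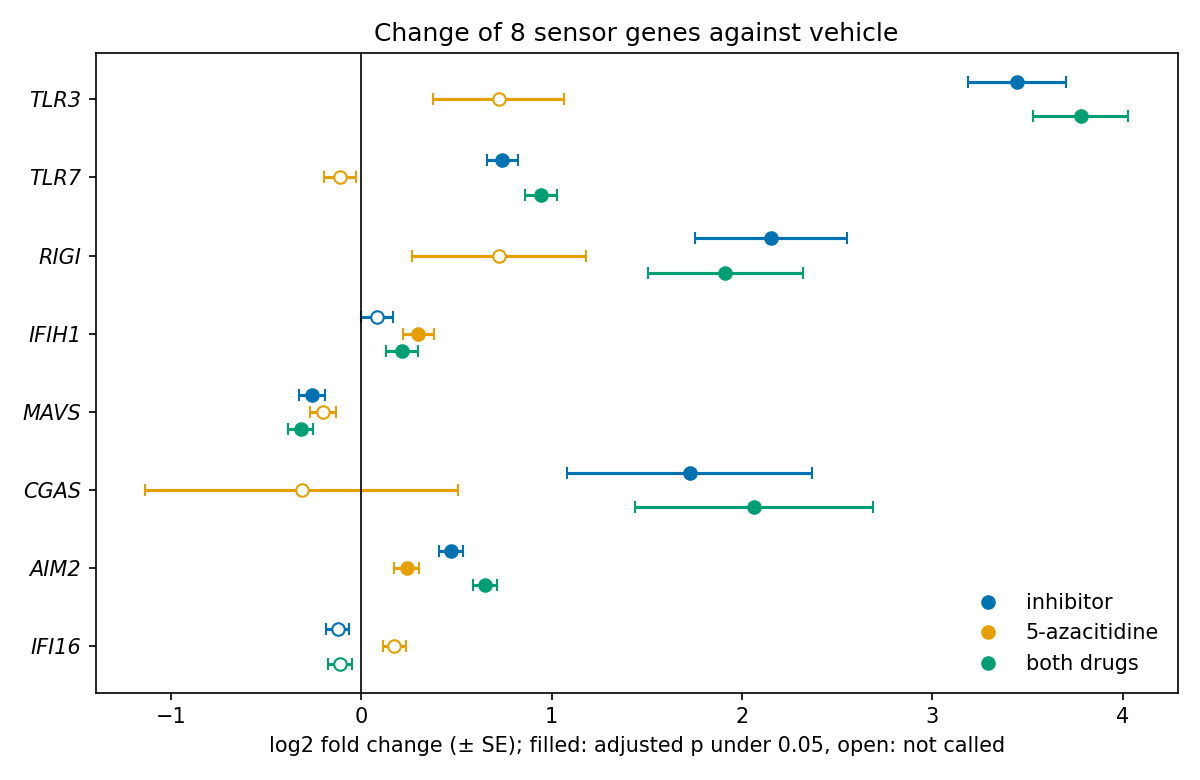
Log2 fold change against vehicle (x axis, ± SE from the fit over 12 libraries) of 8 sensor genes with the inhibitor, 5-azacitidine or both drugs; filled points have an adjusted p under 0.05. TLR3 lies at 3.45 with the inhibitor and 3.78 with both drugs, MAVS lies below 0 in all 3 comparisons, and STING1 is not drawn because its vehicle counts are too few for a fitted fold change. CGAS passed the low-count filter only through libraries that held the inhibitor, and RIGI had 0 vehicle libraries over it.

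TLR3, the endosomal receptor for duplex RNA (ENSG00000164342; chromosome 4, 186068911 to 186088073, plus strand), had the largest fitted change among the members outside STING1. It stood at 0.387, 0.546 and 0.113 CPM in the vehicle libraries and at 3.69, 3.72 and 4.16 CPM with the inhibitor. With 5-azacitidine it was at 0.572, 0.519 and 0.651 CPM, and with both drugs at 4.55, 4.46 and 5.57 CPM. All 6 libraries with the inhibitor were above all 6 without it, and vehicle and 5-azacitidine overlapped. The rise with the inhibitor was 10.9-fold (log2 3.45 ± 0.26 SE, adjusted p = 1.32e-11) and with both drugs 13.7-fold (log2 3.78 ± 0.25, adjusted p = 7.90e-13). The change with 5-azacitidine was 0.72 ± 0.34 on the log2 scale (adjusted p = 0.215). These calls rest on 38 vehicle counts in all, and the promoter printed above holds the interferon-type motif next to the start.

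TLR7, the endosomal receptor for RNA with a single strand (ENSG00000196664; chromosome X, 12867072 to 12890361, plus strand), was well counted in every library. It stood at 17.65, 18.2 and 21.5 CPM in vehicle, at 30.4, 32.6 and 32.7 CPM with the inhibitor, at 16.03, 18.8 and 18.1 CPM with 5-azacitidine and at 33.0, 38.2 and 39.0 CPM with both drugs. The 6 libraries with the inhibitor did not overlap the 6 without it, and the combination lay above the inhibitor alone in each library. TLR7 rose 1.67-fold with the inhibitor (log2 0.74 ± 0.08, adjusted p = 3.05e-08) and 1.92-fold with both drugs (log2 0.94 ± 0.08, adjusted p = 2.23e-10). With 5-azacitidine the log2 change was -0.11 ± 0.09 (adjusted p = 0.495). TLR9, the receptor for unmethylated CpG DNA, had 1 count in vehicle replicate 1 and 0 in the other 11 libraries, and was not tested.

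RIGI, the cytosolic sensor of RNA with a 5' triphosphate, was read from the exons outside the overlapping model. Its counts were 4, 8 and 9 in vehicle, 26, 25 and 44 with the inhibitor, 9, 11 and 15 under 5-azacitidine and 26, 25 and 29 with both drugs. The libraries with the inhibitor were all above those without it. Of the vehicle libraries 0 were over the low-count filter, so a rise against vehicle was favoured by the filter. RIGI rose 4.44-fold with the inhibitor (log2 2.15 ± 0.40, adjusted p = 5.69e-05) and 3.76-fold with both drugs (log2 1.91 ± 0.41, adjusted p = 0.000227). Its log2 change with 5-azacitidine was 0.72 ± 0.46 (adjusted p = 0.382), and in counts its lowest library equalled the highest of vehicle, at 9.

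IFIH1, which encodes MDA5, the cytosolic sensor of long duplex RNA (ENSG00000115267; chromosome 2, 162267074 to 162318684, minus strand), was called with 5-azacitidine and with both drugs, by small changes. It was at 17.1, 19.6 and 17.1 CPM in vehicle, 18.3, 19.9 and 18.7 CPM with the inhibitor, 19.5, 23.2 and 23.4 CPM under 5-azacitidine, and 20.6, 20.5 and 21.2 CPM with both drugs. The combination lay above every vehicle library, whereas AZA replicate 1 overlapped the highest vehicle library. The rise with 5-azacitidine was 1.23-fold (log2 0.30 ± 0.08, adjusted p = 0.0185) and with both drugs 1.16-fold (log2 0.21 ± 0.08, adjusted p = 0.0273). With the inhibitor the log2 change was 0.08 ± 0.08 (adjusted p = 0.427). The 5-azacitidine call was lost without vehicle replicate 1 or 3 or without AZA replicate 2 or 3 (adjusted p 0.0922 to 0.0996). The call with both drugs was lost without vehicle replicate 1 or 3 (adjusted p = 0.113 in each) or HDAC3i_AZA replicate 3 (0.0719), with library totals in place of TMM (0.0522) and with no filter (0.0558).

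MAVS, the mitochondrial adaptor of both RNA helicases (ENSG00000088888; chromosome 20, 3846799 to 3876123, plus strand), was the only tested member called lower against vehicle. It stood at 93.1, 92.8 and 85.5 CPM in vehicle, 73.0, 78.0 and 75.7 CPM with the inhibitor, 83.7, 78.8 and 73.3 CPM under 5-azacitidine and 76.8, 63.8 and 76.7 CPM with both drugs. Each treated library lay below each vehicle library. MAVS fell by 0.26 ± 0.07 on the log2 scale with the inhibitor (adjusted p = 0.00182), and fell by 0.32 ± 0.07 with both drugs (adjusted p = 0.000175). With 5-azacitidine the log2 change was -0.20 ± 0.07 (adjusted p = 0.0539), a value that passed the threshold in 7 of the alternatives, among them the fit without the pair of libraries with the highest mitochondrial share (adjusted p = 0.0211).

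CGAS, which encodes the cytosolic DNA sensor cGAS (ENSG00000164430; chromosome 6, 73413515 to 73452297, minus strand), was near the counting limit. It had 4, 4 and 2 counts in vehicle, 16, 9 and 9 with the inhibitor, 0, 4 and 4 under 5-azacitidine, and 21, 6 and 16 with both drugs. All libraries with the inhibitor were above those without it, HDAC3i_AZA replicate 2 by the least. The ratio of summed counts, 34 to 10, was 3.4 with the inhibitor (exact 95% interval 1.64 to 7.72), and 43 to 10 gave 4.3 with both drugs (2.13 to 9.60), where the intervals cover counting error only. The adjusted p was 0.0273 with the inhibitor and 0.00622 with both drugs. The former was lost without vehicle replicate 1 (0.055), 2 (0.057) or 3 (0.104) or without HDAC3i replicate 1 (0.136), and the latter without HDAC3i_AZA replicate 1 (0.0523). With 5-azacitidine the ratio was 0.8 (0.274 to 2.25). CGAS passed the low-count filter only through libraries that held the inhibitor, which set the direction of its rises, so they are a description.

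STING1, which encodes the adaptor STING that cGAS activates (ENSG00000184584; chromosome 5, 139475533 to 139482935, minus strand), was at or under the limit in vehicle. It had 2, 0 and 0 counts in vehicle, 18, 8 and 8 with the inhibitor, 0, 4 and 0 under 5-azacitidine, and 24, 30 and 15 with both drugs. Every library with the inhibitor exceeded every library without it. The ratio of summed counts was 17 with the inhibitor (exact 95% interval 4.36 to 146, adjusted p = 0.000957) and 34.5 with both drugs (9.20 to 291, adjusted p = 1.46e-05). The upper bounds show how little the 2 vehicle counts fix the size of the change. STING1 passed the low-count filter only through libraries that held the inhibitor, which set the direction of these rises, so they are a description. With 5-azacitidine the ratio was 2 (0.287 to 22.1, adjusted p = 0.773). Even with both drugs, STING1 was at 0.638 ± 0.210 CPM, and its 0.133 RPKM was below the 5.48 of AIM2 and the 60.4 of IFI16.

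AIM2, the DNA sensor of an inflammasome (ENSG00000163568; chromosome 1, 159056129 to 159187843, minus strand), was called higher in all 3 comparisons with vehicle. It stood at 28.4, 29.7 and 31.2 CPM in vehicle, 41.4, 41.1 and 41.3 CPM with the inhibitor, 35.6, 36.7 and 33.0 CPM under 5-azacitidine and 44.7, 48.7 and 46.7 CPM with both drugs. The 4 groups did not overlap, in the order vehicle, 5-azacitidine, inhibitor and combination. The rise was 1.39-fold with the inhibitor (log2 0.47 ± 0.06, adjusted p = 6.03e-07), 1.18-fold with 5-azacitidine (log2 0.24 ± 0.06, adjusted p = 0.0176) and 1.57-fold with both (log2 0.65 ± 0.06, adjusted p = 1.47e-09). The 5-azacitidine call was lost without vehicle replicate 1 (0.109) or 2 (0.0552) or AZA replicate 2 (0.102).

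IFI16, a nuclear and cytosolic DNA-binding protein (ENSG00000163565; chromosome 1, 158999968 to 159055155, plus strand), lies next to AIM2, with 0.974 kb between the genes, and was not called against vehicle. It stood at 349.85, 340.3 and 347 CPM in vehicle, 309, 309 and 334 CPM with the inhibitor, 411, 391 and 367 CPM under 5-azacitidine and 288, 353 and 319 CPM with both drugs. The inhibitor libraries were all below vehicle, the 5-azacitidine libraries all above it, and the combination overlapped vehicle. Its log2 changes were -0.12 ± 0.06 with the inhibitor (adjusted p = 0.0898), 0.17 ± 0.06 with 5-azacitidine (0.0751) and -0.11 ± 0.06 with both drugs (0.118). The 5-azacitidine value passed the threshold in 7 alternatives, DESeq2 among them (adjusted p = 0.0393). The inhibitor value did so with only the 2 groups compared (0.0461) and without HDAC3i_AZA replicate 2 (0.0411). On the other side of IFI16, 22.9 kb away, PYHIN1, another gene of the HIN-200 family, rose with the inhibitor (log2 0.97 ± 0.10, adjusted p = 5.74e-09). The values of PYHIN1 and IFI16 had opposite signs, but that of IFI16 was not called and their difference was not tested.

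Adding the inhibitor to 5-azacitidine was compared next. Of the 9 tested members 6 rose and 1 fell in the combination against 5-azacitidine alone, beside 28.7% and 25.1% of all genes, with a median log2 change of 1.05 against 0.014. CGAS and STING1 passed the low-count filter only through libraries that held the inhibitor, which set their direction here too. RIGI had 2 AZA libraries over that filter, where 3 libraries were required, so its rise here was also favoured by the filter. Without CGAS and STING1 4 of 7 rose, RIGI still among them, and 1 fell, with a median of 0.41. These counts are a description. TLR3 rose 8.32-fold (log2 3.06 ± 0.23, adjusted p = 1.24e-11) and TLR7 2.08-fold (log2 1.05 ± 0.08, adjusted p = 3.61e-11), again without overlap between the libraries. AIM2 rose 1.33-fold (log2 0.41 ± 0.06, adjusted p = 3.12e-06). IFI16 fell by 0.29 ± 0.06 on the log2 scale (1.22-fold, adjusted p = 0.000258), with every combination library below every 5-azacitidine library. STING1 counts rose from 4 to 69 over the groups, a ratio of 17.25 (exact 95% interval 6.44 to 65.1, adjusted p = 4.92e-05). RIGI rose 2.28-fold (adjusted p = 0.00854), and CGAS counts were 43 to 8 (ratio 5.375, 2.50 to 13.2, adjusted p = 0.00303). Without the pair of libraries with the highest mitochondrial share both of these calls were lost, at 0.082 for RIGI and 0.0514 for CGAS. IFIH1 and MAVS were not called, with log2 changes of -0.09 ± 0.08 and -0.12 ± 0.07.

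Adding 5-azacitidine to the inhibitor gave no call among the members. In the combination against the inhibitor alone 0 rose and 0 fell by the edgeR test, beside 4.51% and 2.83% of all genes, and DESeq2 and limma voom also called 0. At an unadjusted p under 0.05 there were 2, AIM2 (log2 0.18 ± 0.06, adjusted p = 0.0804) and TLR7 (log2 0.20 ± 0.08, adjusted p = 0.133), and in both genes each combination library lay above each inhibitor library. With a filter of 5 CPM in at least 3 libraries AIM2 was called (adjusted p = 0.0414). TLR3 differed by 0.33 ± 0.18 (adjusted p = 0.291) without overlap of the libraries, and STING1 by 69 to 34 counts with overlap (adjusted p = 0.267). For the interaction, which asks whether the effect of 5-azacitidine differed with the inhibitor present, 0 members were called by edgeR, DESeq2 or voom, beside 0.263% of genes higher and 0.453% lower. At an unadjusted p under 0.05 there was 1, TLR7, at 0.31 ± 0.12 on the log2 scale (adjusted p = 0.238). That the effects of the drugs on these genes simply add was not shown by this, since the SE of the interaction ranged from 0.09 for IFI16 to 0.98 for CGAS among the members other than STING1.

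The proteins that work with the endosomal receptors were taken from a list of 20 genes, of which 18 were tested. With the inhibitor 10 rose and 4 fell (median log2 change 0.39), beside 26.4% and 24.9% of all genes tested. With 5-azacitidine 1 rose and 0 fell, beside 4.31% and 4.75%, and with both drugs 10 rose and 5 fell, beside 29.6% and 27.5%. The counts include TASL, 1 of the rises, which passed the low-count filter only through libraries that held the inhibitor. The nuclease PLD4, which degrades the DNA and RNA that would engage these receptors, rose from 1.12 ± 0.338 CPM in vehicle to 8.95 ± 1.16 with the inhibitor, 4.48 ± 0.106 under 5-azacitidine and 15.5 ± 0.986 with both (SD, n = 3). It was called in each comparison, with an interaction of -1.21 ± 0.21 (adjusted p = 0.00503). The ribonuclease RNASE6 rose from 3.16 ± 0.286 to 7.41 ± 0.591 CPM with the inhibitor and 10.7 ± 0.642 with both, and the protease LGMN, which cleaves endosomal Toll-like receptors, rose by 0.48 ± 0.06 and 0.70 ± 0.06 on the log2 scale. SLC15A4, a lysosomal transporter that TLR7 and TLR9 need for signalling, fell from 88.3 ± 2.87 CPM to 48.2 ± 4.13 with the inhibitor and 50.2 ± 4.12 with both drugs. So TLR7 rose in the same libraries in which the transcript of a partner was lower by 0.87 ± 0.07 on the log2 scale (adjusted p = 1.37e-11).

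Among 19 tested partners and regulators of RIG-I and MDA5, 5 rose and 10 fell with the inhibitor (median -0.16), beside 26.4% and 24.9% of all genes. With 5-azacitidine 1 rose and 1 fell, beside 4.31% and 4.75%, and with both drugs 5 rose and 10 fell, beside 29.6% and 27.5%. RNF135, at 0 CPM in vehicle, passed the filter only through libraries with the inhibitor, and without it 4 rose and 10 fell with the inhibitor. TRIM25, a ubiquitin ligase of the RIG-I pathway, rose from 29.9 ± 1.10 CPM to 61.0 ± 0.686 with the inhibitor and 68.6 ± 2.69 with both. TRIM65, a ligase that acts on MDA5, fell from 115 ± 2.40 to 72.1 ± 3.84 and 72.2 ± 2.75 CPM. TRAF2, a signalling adaptor, fell with each treatment, by 0.52, 0.39 and 0.74 on the log2 scale with the inhibitor, 5-azacitidine and both. DICER1, the ribonuclease of the microRNA pathway, fell by 0.48 with the inhibitor and by 0.78 with both drugs.

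For cGAS and STING, 20 of 22 listed genes were tested. With the inhibitor 7 rose and 7 fell (median -0.11), beside 26.4% and 24.9% of all genes tested. With 5-azacitidine 0 rose and 3 fell, beside 4.31% and 4.75%, and with both drugs 8 rose and 7 fell, beside 29.6% and 27.5%. SAMHD1, which hydrolyses deoxynucleotides, rose from 48.9 ± 1.96 to 66.8 ± 1.37 CPM with the inhibitor and 77.1 ± 2.77 with both drugs, and STIM1, a calcium sensor that holds STING in the endoplasmic reticulum, from 70.7 ± 1.37 to 104.6 ± 2.23 and 106 ± 3.51 CPM. USP18, an interferon-induced protease, rose by 1.34 and 1.71 on the log2 scale. SLC19A1, a folate carrier that also imports cyclic dinucleotides, fell with each treatment, from 23.6 ± 1.96 CPM to 14.1 ± 1.54, 18.6 ± 0.920 and 12.3 ± 0.480. TREX1, the exonuclease that removes cytosolic DNA, had 0 counts, but 100% of its exonic bases are shared with another gene, so its level was not readable either, and SLC19A1 shares 13.9% of its exonic bases.

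The AIM2 inflammasome and HIN-200 list had 9 tested genes of 14. Of these, 8 rose and 0 fell with the inhibitor (median 1.33), beside 26.4% and 24.9% of all genes tested. With 5-azacitidine 2 rose and 0 fell, beside 4.31% and 4.75%, and with both drugs 8 rose and 0 fell, beside 29.6% and 27.5%. MNDA (0 CPM in vehicle, 0.220 with the inhibitor) and NLRP3 (0.0370 and 0.239 CPM) passed the filter only through libraries that held the inhibitor, which set their direction. Without them 6 of 7 rose and 0 fell with the inhibitor, with a median of 0.97, and 6 of 7 rose with both drugs. CASP1, the caspase that an AIM2 inflammasome activates, went from 1.23 ± 0.221 CPM in vehicle to 11.3 ± 1.11 with the inhibitor, 1.99 ± 0.300 under 5-azacitidine and 15.9 ± 1.06 with both drugs, and was called in each. CARD16, a regulator related to caspase-1, rose by 1.96, 0.54 and 2.36 on the log2 scale in the same order, and CASP4, the caspase of the non-canonical inflammasome, by 1.33 with the inhibitor and 1.47 with both. PYCARD, the adaptor that joins AIM2 to caspase-1, had 0 counts, with 93.7% of its exonic bases shared with another gene, and IL1B, a caspase-1 substrate, also had 0.

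Downstream, 1 of 13 kinases and transcription factors rose and 6 fell with the inhibitor (median -0.22), beside 26.4% and 24.9% of all genes tested. With 5-azacitidine 2 rose and 0 fell, beside 4.31% and 4.75%, and with both drugs 4 rose and 5 fell, beside 29.6% and 27.5%. TBK1, the kinase that MAVS and STING share, was lower with the inhibitor by 0.34 ± 0.07 on the log2 scale (51.8 ± 2.26 to 40.9 ± 1.52 CPM, adjusted p = 0.000196) and NFKB1, an NF-kB subunit, by 0.35 ± 0.06. IRF5, a factor downstream of TLR7, rose with 5-azacitidine (log2 0.31) and with both drugs (log2 0.58). Of 15 interferon and receptor genes 6 were tested, and all 6 encode receptor chains. IFNGR1 rose by 0.54 with the inhibitor, while IFNAR2 fell by 0.30 and IFNGR2 fell by 0.27, with 27.7% and 14.97% of their exonic bases shared with another gene. Of 9 interferon genes 2 had any count, IFNG with at most 8 in a library and IFNB1 with 2 each in HDAC3i_AZA replicates 1 and 3 and 0 in the other 10 libraries. IFNB1, the interferon-beta gene that these sensors are known to induce, was thus within the limit of 3 counts in all libraries.

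The remaining list held 21 other proteins described as sensors of nucleic acid, all tested. With the inhibitor 8 rose and 8 fell (median 0.03), beside 26.4% and 24.9% of all genes tested. With 5-azacitidine 5 rose and 2 fell, beside 4.31% and 4.75%, and with both drugs 9 rose and 10 fell, beside 29.6% and 27.5%. Without IFIT1 and SLFN11, which passed the filter only through libraries with the inhibitor, 6 rose and 8 fell with the inhibitor and the median was -0.02. OAS3, which makes an RNase L activator when it binds duplex RNA, rose from 26.3 ± 0.721 CPM to 89.1 ± 1.42 with the inhibitor, 37.3 ± 2.34 with 5-azacitidine and 114.7 ± 5.23 with both drugs. OASL, a related protein that enhances RIG-I, rose by 2.56, 0.99 and 2.88 on the log2 scale. PRKDC, the catalytic subunit of a DNA repair kinase, fell by 0.28, 0.29 and 0.65, and DDX41, a helicase that binds DNA and RNA, fell by 0.31, 0.17 and 0.47.

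**Figure D4:**
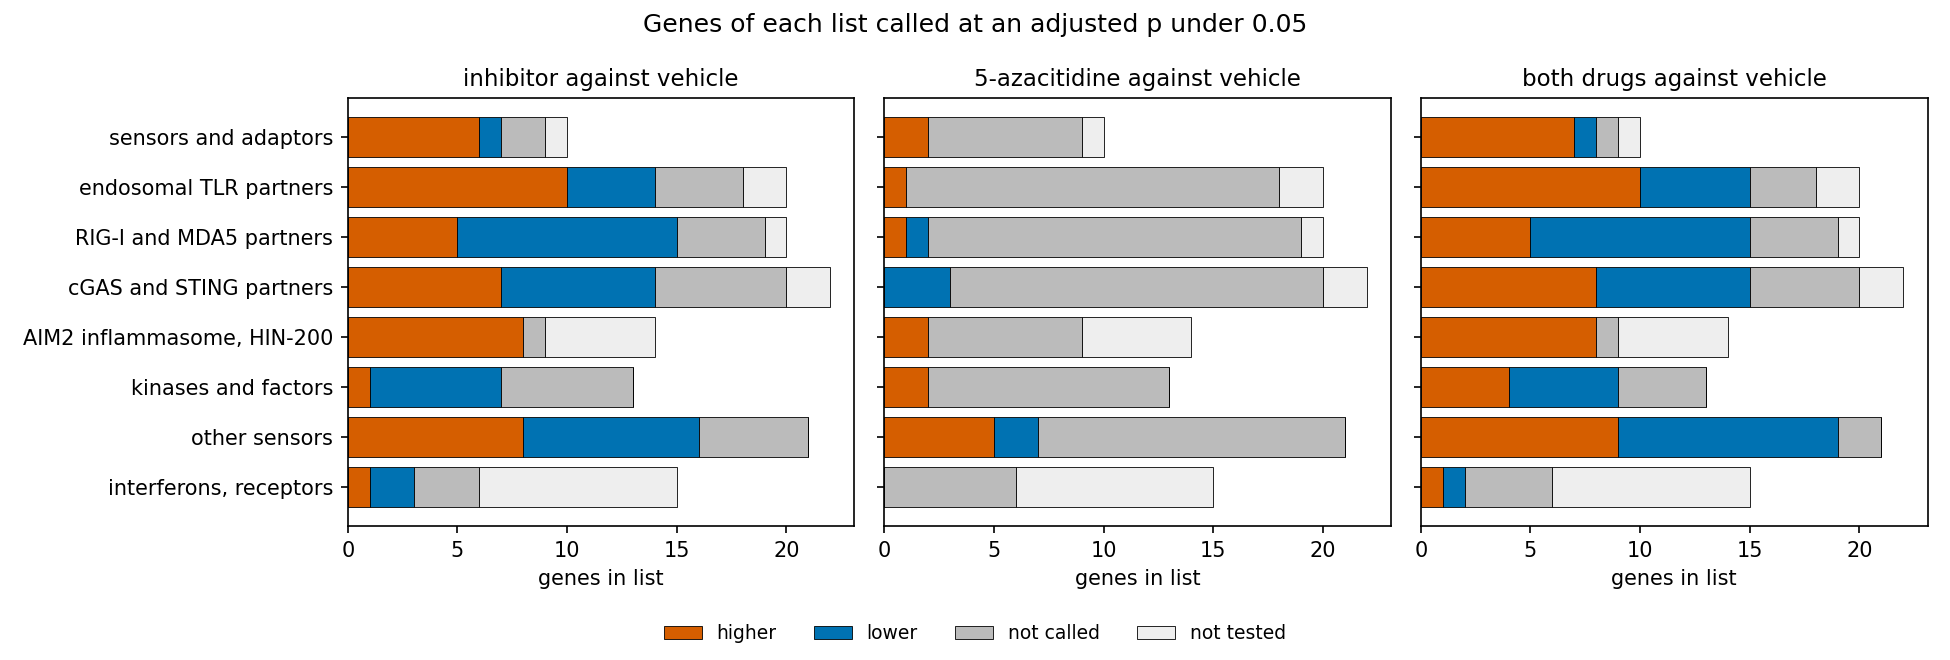
Number of genes (x axis) in each list that were called higher or lower, were not called or were not tested, for the inhibitor, 5-azacitidine and both drugs against vehicle. In the inhibitor panel the inflammasome and HIN-200 list has 8 of 9 tested genes higher, MNDA and NLRP3 among them, and the RIG-I and MDA5 partners have 5 of 19, RNF135 among them, beside 26.4% of all genes tested, and the difference between the lists was not tested.

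Genes outside these lists were ranked by how closely their log2 CPM, each minus its vehicle mean, followed a member over the 12 libraries, among 9621 genes that reached a mean of 5 CPM in some group. The distance is the root mean square difference in log2 units, and small distances are partly a matter of depth and of small changes. For TLR7 the nearest were GNG2 (0.0951) and FSD1 (0.10), for AIM2 TMX4 (0.0536) and CD28 (0.0577), for MAVS GTF3C1 (0.0589), for IFIH1 ST7L (0.0860) and UBE2B (0.0890), and for IFI16 CEP55 (0.0480) and SDAD1 (0.0515). For the members of low count the nearest genes were farther: LMO2 (0.346) for TLR3, HLA-DQA1 (0.253) for RIGI, CD1A (0.475) for STING1 and REEP2 (0.483) for CGAS. The protein-coding neighbours on the chromosome gave mixed values: TMSB4X, 84.7 kb from TLR7, rose by 1.43 with the inhibitor while PRPS2, 42.85 kb away on the other side, fell by 0.20, and both neighbours of MAVS and of CGAS had adjusted p-values over 0.05 with the inhibitor.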

How the data were processed

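Messenger RNA of 12 OCI-Ly7 libraries was sequenced. The submitters' processing notes name STAR 2.7.11b, Subread 2.1.2, cutadapt 5.1, FastQC 12.1, bcl2fastq 2.17.1.14 and GRCh38. The deposited values are expected counts per gene: per the file headers, featureCounts 2.1.1 counted over the exons of release 114, with reads that map to several places split into fractions, with no strand setting and with reads over more than 1 gene left out. Reads and read pairs as the unit counted could not be told apart from the header. It names 16 libraries, and 4 were not analysed here. Of the values, 96.9% were whole within 1e-06.

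Counts were rounded and analysed in R 4.3.3. The filterByExpr function of edgeR 4.0.16 kept 17869 genes with 99.9% of the counts, libraries were scaled by TMM, and all 12 were fitted with 1 mean per group. Each of 6 comparisons was tested with the two-sided edgeR quasi-likelihood F-test, adjusted by Benjamini-Hochberg over all genes tested and called at 0.05. The SE is the log2 change divided by the root of F. The biological coefficient of variation was 6.05%. Groups with few counts are given as ratios of summed counts with exact 95% intervals. Shared bases were found from the exons in the count table, and coding bases from GENCODE.

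All 10 members are named for the comparisons with vehicle, and the 9 tested ones for the combination against 5-azacitidine. For the combination against the inhibitor and for the interaction only some members are named. From each other list, the 4 genes of smallest adjusted p with both drugs are named, and for each member 2 genes of most similar pattern were sought, 1 of which is not reported here. TREX1, PYCARD, IL1B, MNDA, NLRP3, RNF135, TASL, IFIT1, SLFN11, IFNB1, IFNG, BCL6, MME and the neighbouring genes were named after their values were seen. The members and lists were chosen with earlier results of these data known. Alternatives were DESeq2 size factors, library totals, no filter, a filter of 5 CPM in 3 libraries, DESeq2 1.42.0, limma 3.58.1 voom, only the 2 groups compared, a replicate block by title or by library name number, counts rounded down, leaving out each library, and, chosen after seeing the data, omission of the 2 libraries with the highest mitochondrial share. The fits were also run on simulated data as a check of the code. No outcome of that check is given here, so it adds no support to single calls.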

Additional observations from a re-analysis of the deposited data

How the results depend on the processing

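The 54 results of single members (9 genes in 6 comparisons) kept their direction and their side of the threshold under every alternative in 34 cases. Of 1202 values under an alternative 1145 did so, 19 lost a call, 19 gained one and 19 changed sign, the last among uncalled values alone. The calls that were lost stand beside their genes. With 5 CPM required in 3 libraries 5 members remained to be tested, and 3 were called with the inhibitor, 4 with both drugs, 3 for the combination against 5-azacitidine and 1 against the inhibitor. Of the 10382 genes tested at that filter, 6136, 6942, 6689 and 1325 were called in the same order. With 5-azacitidine 4 members were called with no filter and with only the 2 groups compared, and from 0 (without vehicle replicate 1 or AZA replicate 2) to 4 when each library was left out, so that count rests on single libraries. Among all genes, 1575 of 37992 were called with no filter and 1725 of 16001 with only the 2 groups compared. Over all genes, leaving out each library gave 1017 (without vehicle replicate 1) to 1980 (without HDAC3i_AZA replicate 2) calls with 5-azacitidine, against 1619 with all libraries, 690 (without HDAC3i replicate 3) to 1848 (without HDAC3i_AZA replicate 2) for the combination against the inhibitor, against 1312, and from 35 (without AZA replicate 2 or HDAC3i_AZA replicate 1) to 689 (without HDAC3i_AZA replicate 2) for the interaction. The interaction had 128 calls with all libraries, 314 with no filter, 204 with 5 CPM in 3 libraries, 388 by DESeq2 and 227 with the replicate block by library name number. The cause was not tested.

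The replicate numbers did not pair the libraries: deviations of same-numbered libraries correlated between -0.0591 and 0.0665 over 18 pairs by title and between -0.0342 and 0.0665 over 13 by library name, with 0 over 0.1. With the block by library name IFI16 was called with both drugs (log2 -0.167, adjusted p = 0.0222), as it was without HDAC3i_AZA replicate 2 (-0.19, 0.00628), and its value against the inhibitor was -0.042. That value was -0.00597 with only the 2 groups compared and ran from -0.0644 to 0.0843 when each library was left out. Other values changed sign on the log2 scale when a library was left out, all among uncalled ones. With 5-azacitidine CGAS ran from -0.7 to 0.232 (0.232 also without the pair of highest mitochondrial share) and STING1 from -2.66 to 3.54. In the combination against the inhibitor RIGI ran from -0.385 to 0.0715, MAVS from -0.104 to 0.023 and CGAS from -0.0178 to 0.698. For the interaction TLR3 ran from -0.865 to 0.0193 and STING1 from -2.52 to 3.68, with -0.162 without the pair. Depth limits CGAS and STING1, with 10 and 2 vehicle counts, and the overlap of gene models limits TLR9 and RIGI.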
